A study of Saccharomyces cerevisiae with 15 samples.

Results

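Arginine synthesis in the budding yeast Saccharomyces cerevisiae was followed through 8 named genes: ARG1, ARG3, ARG4, ARG5,6, ARG7, ARG8, CPA1 and YOR302W, the short reading frame upstream of CPA1. They were taken by name from the array annotation, and where a gene had several probe sets the brightest was to be chosen by its mean signal. Of the 8, 7 had a probe set, out of 5656 genes with one. Each of the 7 had a single probe set, so brightness chose nothing. ARG5,6 was not analysed here. The list of genes was drawn up with earlier results of these arrays known, so the number of its members that pass a test describes the list and is not independent evidence about it.

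The study put RNA from 15 cultures on Affymetrix YG-S98 arrays, 1 array for each, in 5 groups of 3 biological replicates. Cells of the first group carried an empty vector, those of the second expressed a Pdr1-Cyc8 fusion, and those of the third a Pdr1-Sin3 fusion, all without a stated deletion. The fourth group lacked the endogenous PDR1 gene, and the fifth lacked it and expressed Pdr1-Cyc8. Pdr1 is a transcription factor of multidrug resistance genes, and Cyc8 and Sin3 are parts of corepressor complexes. Cultures of all groups were growing logarithmically in synthetic dextrose. The labels name neither the strain background and its nutritional requirements, nor the arginine content of the medium, the promoter of the fusions or a vector in the strain with the deletion alone. A level below is log2(signal + 16) after quantile normalisation, and a difference is between such levels. A gene is called lower or higher where its adjusted p in limma, a moderated linear model fitted here to all 15 arrays and 9275 probe sets, was under 0.05. The arrays measured RNA of whole cultures, in which fewer cells with a transcript and less transcript in each cell cannot be told apart.

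Yeast makes arginine from glutamate. In the mitochondrion, acetylated intermediates lead to ornithine, through Arg2, the Arg5,6 kinase and reductase, Arg8 and Arg7. In the cytosol, Arg3 joins ornithine to carbamoyl phosphate, to whose supply Cpa1 contributes, and Arg1 and Arg4 complete arginine. The pathway genes are induced by Gcn4, the activator of the general amino acid response, and several are repressed in the presence of arginine by Arg80, Arg81 and Mcm1, which also act on the arginine breakdown genes CAR1 and CAR2. CPA1 is further controlled in translation: arginine stalls ribosomes on the peptide encoded by its upstream reading frame.

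Some features of the arrays touched every comparison. PDR1 fell by 4.37 on the log2 scale in the deletion against the empty vector. CYC8 was higher by 3.58 with Pdr1-Cyc8 and SIN3 was higher by 3.24 with Pdr1-Sin3. With Pdr1-Cyc8 in the deletion, PDR1 was at -2.14 and CYC8 at 2.89 against the empty vector. All were in the directions of the labels. By the control probe sets, BioC minus BioB was 1.02 to 1.32 (log2) on 9 arrays, those with the empty vector, with Pdr1-Cyc8 and with the deletion alone, and -0.64 to -0.20 on the 6 others. No group had arrays of both kinds, so a comparison across them cannot be told apart from a difference between the kinds of array. Only the comparisons among the first 3 of these groups, and that of Pdr1-Cyc8 in the deletion with Pdr1-Sin3, lay within arrays of one kind. Cultures of a group also differed: Pdr1-Cyc8 replicate 1 and deletion replicates 1 and 2 had the lowest mean levels of 66 ribosome assembly genes, -1.32, -1.55 and -1.71 from the empty vector mean, and values without them are given beside the results that they change.

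In Pdr1-Cyc8 cells lacking PDR1, transcripts of every measured arginine synthesis gene were lower than in cells with the deletion alone. The difference ran from -2.26 for ARG7 to -3.92 for ARG3 on the log2 scale, or 4.78-fold to 15.2-fold lower. All 7 of 7 were called lower, where 8.70% of all probe sets were called lower and 19.0% in either direction. The calls did not hold without the 3 cultures named above, and the differences were then -1.77 for ARG1 to -0.66 for ARG7. That fit leaves 1 deletion array, and fewer probe sets were called over the whole array as well. Those cultures were also the highest of all 15 for the arginine genes. In the same comparison of all arrays, 30 of 66 ribosome assembly genes were called higher, against 1 of 66 without those cultures, and their part in the result was not tested.

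The last cytosolic steps covered a wide range. ARG1 encodes argininosuccinate synthetase, which condenses citrulline with aspartate. Its level was 13.82, 13.79 and 10.63 in deletion replicates 1, 2 and 3, against 9.11, 8.64 and 8.87 with Pdr1-Cyc8 in the deletion. It was 10.51, 11.02 and 12.03 with the empty vector, 13.95, 12.33 and 11.69 with Pdr1-Cyc8, and 10.83, 10.79 and 10.94 with Pdr1-Sin3. Every Pdr1-Cyc8-in-deletion culture therefore lay below every other culture, and deletion replicate 3 lay among those with the empty vector. Between the deletion groups ARG1 fell by 3.88 (SE 0.702, limma adjusted p = 0.00213, n = 3 each). ARG4, the argininosuccinate lyase that releases arginine, was at 14.06, 14.25 and 12.17 in the deletion and at 11.06, 10.68 and 11.03 with Pdr1-Cyc8 in the deletion. Its levels were 11.48, 12.08 and 13.49 with the empty vector, 13.96, 13.16 and 11.93 with Pdr1-Cyc8, and 11.84, 11.96 and 12.05 with Pdr1-Sin3. The Pdr1-Cyc8-in-deletion cultures again lay lowest of all, with a narrower gap. ARG4 fell by 2.57 between the deletion groups (SE 0.573, adjusted p = 0.00725).

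ARG3 encodes ornithine carbamoyltransferase, which makes citrulline, and had the widest difference between the deletion groups. The deposited signal of its probe set was 2348.5, 1739.6 and 99.9 in the 3 deletion cultures, a ratio of 23.5 between replicate 1 and replicate 3, and 38.4, 43.0 and 36.2 in the 3 cultures with Pdr1-Cyc8 in the deletion. It was 67.5, 128.4 and 338.1 with the empty vector, 1674.1, 523.8 and 154.8 with Pdr1-Cyc8 and 45.2, 60.3 and 88.3 with Pdr1-Sin3. The lowest Pdr1-Sin3 culture lay close to those with Pdr1-Cyc8 in the deletion, and on the log2 scale these groups overlapped. ARG3 fell by 3.92 between the deletion groups (SE 0.918, adjusted p = 0.00944). Because 16 was added to each signal, the difference understates the ratio of the low signals.

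**Figure D1:**
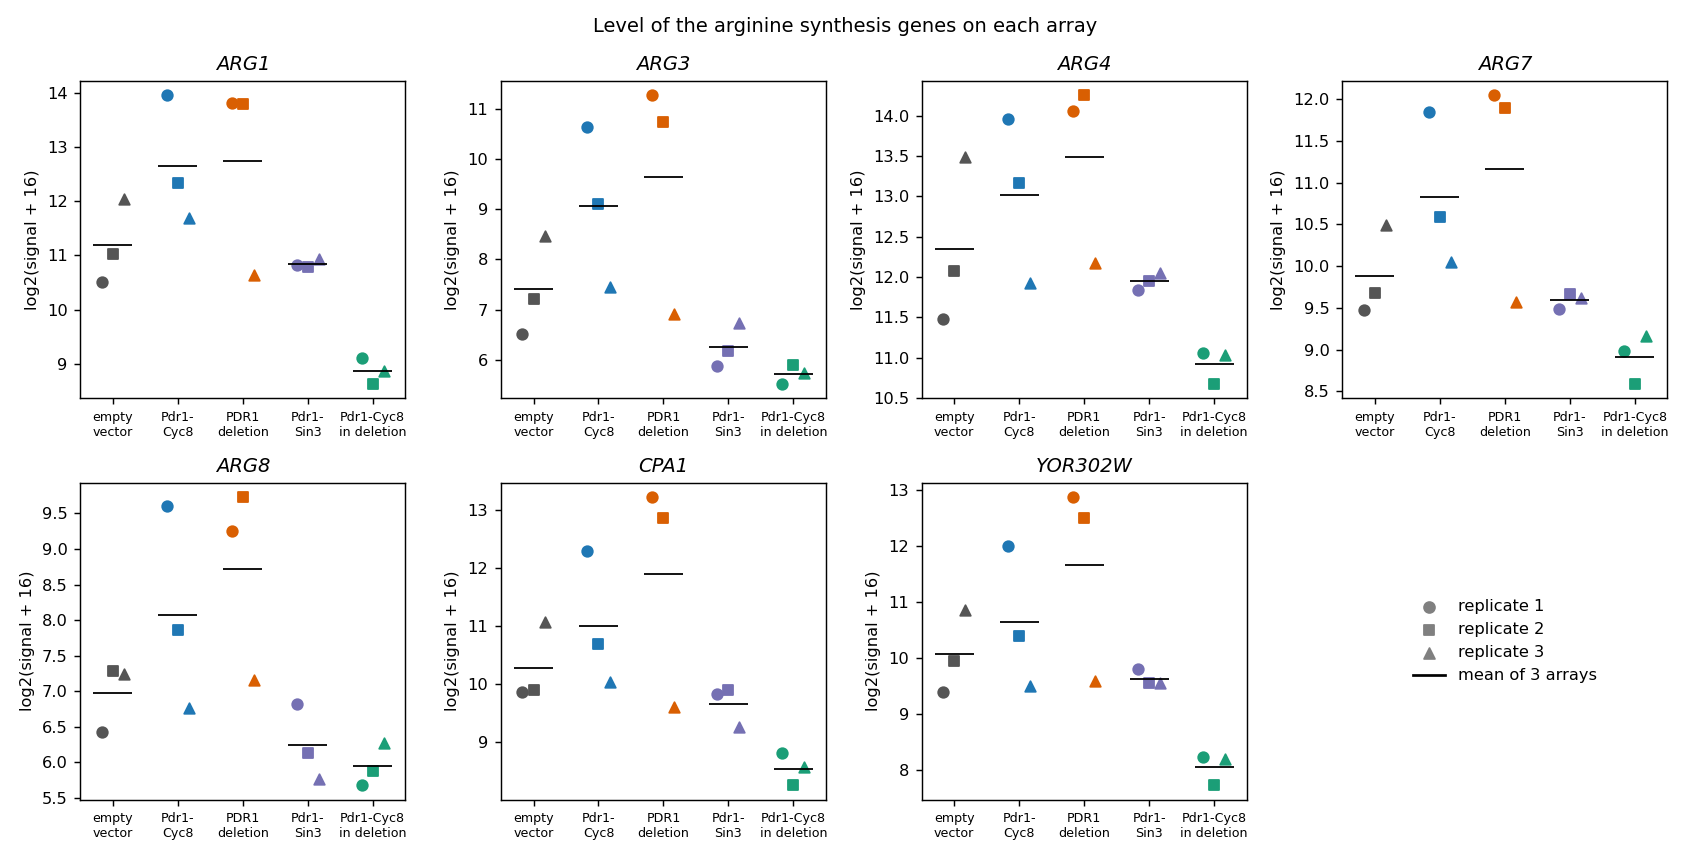
Levels of the 7 measured genes, as log2(signal + 16) after quantile normalisation, on each of the 15 arrays (points, with a shape for each replicate number) with the group mean (line), by group. The group with Pdr1-Cyc8 in the deletion sits lowest by mean in all 7 genes, and deletion replicate 3 lies apart from replicates 1 and 2.

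Carbamoyl phosphate for this step comes from CPA1, the small subunit of the arginine-specific carbamoyl phosphate synthetase. CPA1 was at 13.22, 12.85 and 9.60 in the deletion, and at 8.81, 8.26 and 8.58 with Pdr1-Cyc8 in the deletion. With the empty vector it was at 9.86, 9.90 and 11.07, with Pdr1-Cyc8 at 12.28, 10.69 and 10.03, and with Pdr1-Sin3 at 9.83, 9.90 and 9.25. Deletion replicate 3 was below the lowest empty vector culture, and all 3 with Pdr1-Cyc8 in the deletion were lower still. Between the deletion groups CPA1 fell by 3.34 (SE 0.738, adjusted p = 0.0069).

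The upstream reading frame YOR302W, whose product is the arginine attenuator peptide, lies on the same transcript as CPA1, so its probe set is not an independent measure of another gene. It was at 12.88, 12.50 and 9.60 in the deletion and at 8.24, 7.73 and 8.19 with Pdr1-Cyc8 in the deletion. It fell by 3.61 (SE 0.708, adjusted p = 0.00348). Relative to their own empty vector means, the YOR302W and CPA1 probe sets differed on single arrays by -0.36 to 0.51. The 3 arrays with Pdr1-Cyc8 in the deletion had values of -0.36, -0.33 and -0.18, against -0.25, 0.25 and 0.002 with the empty vector, and these groups overlapped. Translation, at which the attenuator acts, was not measured by these arrays.

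In the mitochondrion, both measured members were lower as well. ARG7, ornithine acetyltransferase, was at 12.04, 11.89 and 9.57 in the deletion and at 8.98, 8.59 and 9.16 with Pdr1-Cyc8 in the deletion. It fell by 2.26 (SE 0.547, adjusted p = 0.0115). Leaving out deletion replicate 1 or 2 alone ended this call, at adjusted p = 0.0533 and 0.055. ARG8, the acetylornithine aminotransferase, was at 9.25, 9.73 and 7.17 in the deletion and at 5.68, 5.87 and 6.28 with Pdr1-Cyc8 in the deletion. It fell by 2.77 (SE 0.647, adjusted p = 0.00933). For both genes, as for the other 5, no deletion culture overlapped a culture with Pdr1-Cyc8 in the deletion, which held for 14.1% of all probe sets in that direction. Differences between these genes in size were not tested.

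**Figure D2:**
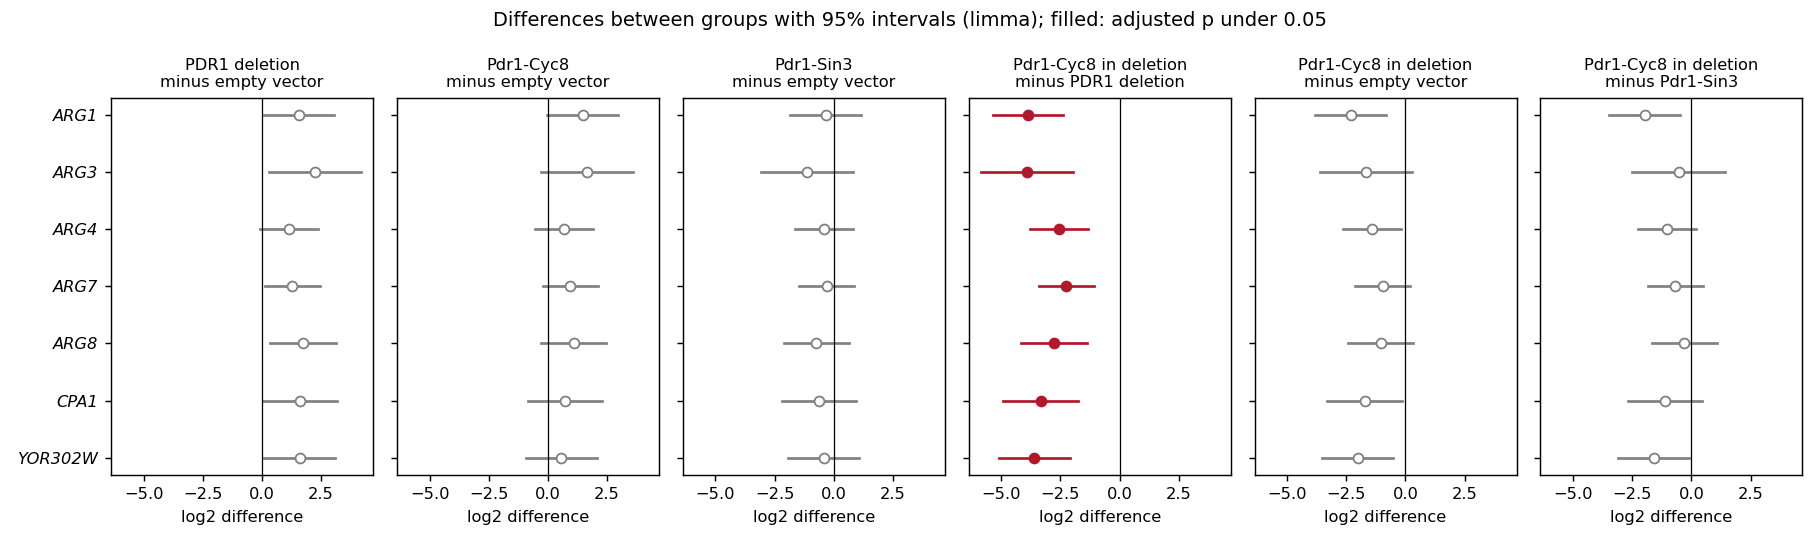
Log2 differences of the 7 genes (points) with their 95% confidence intervals (bars) in the comparisons of group means, and filled points where the limma adjusted p was under 0.05. Only Pdr1-Cyc8 in the deletion against the deletion alone has filled points, from -3.92 for ARG3 to -2.26 for ARG7.

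Whether the fusion acts differently with and without endogenous PDR1 was addressed by the interaction, the effect of Pdr1-Cyc8 in the deletion minus its effect in cells that keep PDR1. For the arginine genes the effect was below 0 in the deletion and above 0, though uncalled, in cells with PDR1. The interaction was called lower in 7 of 7, against 5.30% of all probe sets in that direction and 11.5% in either. It ran from -5.58 for ARG3 (SE 1.30, limma adjusted p = 0.0165) and -5.35 for ARG1 (adjusted p = 0.00626) to -3.20 for ARG7 (adjusted p = 0.0192). The calls did not hold without the 3 cultures named above, which leaves 1 deletion array, and the interaction was then -2.61 for ARG1 to -1.10 for ARG7. The count also depended on single arrays: 2 of 7 were called without empty vector replicate 1, 3 without deletion replicate 2 and 4 without Pdr1-Cyc8 replicate 1. In these settings 437, 464 and 441 of all probe sets were called, against 1067 with all arrays.

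The deletion alone was compared with the empty vector within arrays of one kind. All 7 genes had higher means in the deletion, by 1.15 for ARG4 to 2.24 for ARG3 on the log2 scale, and 0 were called, where 0.0323% of all probe sets were. The limma adjusted p was 0.289 to 0.392, while 6 of 7 had an unadjusted p under 0.05. For ARG3 the 95% interval of the difference ran from 0.29 to 4.19. The groups overlapped for every gene, while 6.42% of all probe sets had every deletion culture above every empty vector culture. Deletion replicate 3 lay from -0.68 (CPA1) to 0.18 (ARG8) from the empty vector mean. Without that replicate 7 of 7 were called higher, by 1.82 to 3.60, among 829 probe sets called. Without the 3 cultures named above, 6 of 7 had values below 0.

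Pdr1-Cyc8 in cells that keep PDR1 also gave means above the empty vector for 7 of 7 genes, by 0.57 for YOR302W to 1.66 for ARG3. None was called in limma, where 0.712% of all probe sets were, and 0 of 7 had an unadjusted p under 0.05 (adjusted p 0.512 to 0.84). For ARG1 the 95% interval ran from -0.022 to 2.96. The Pdr1-Cyc8 cultures were spread, with replicate 1 highest and replicate 3 lowest in 7 of 7 genes. ARG8, for example, was at 9.61, 7.86 and 6.76, against 6.43, 7.28 and 7.24 with the empty vector.

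With Pdr1-Sin3 the 7 genes had values below 0 against the empty vector, from -1.14 for ARG3 to -0.29 for ARG7. Of these 0 were called in limma, where 3.71% of all probe sets were, and 0 had an unadjusted p under 0.05 (adjusted p 0.535 to 0.838). The 95% interval for ARG3 ran from -3.09 to 0.81. Without empty vector replicate 3, the highest empty vector culture for 6 of 7 genes, the values for ARG1, ARG4 and ARG7 were above 0.

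Pdr1-Cyc8 in the deletion gave lower means than the empty vector too, from -2.32 for ARG1 to -0.97 for ARG7. In limma 0 of 7 were called, where 8.47% of all probe sets were, and 4 of 7 had an unadjusted p under 0.05. ARG1 lay just outside the threshold, with an SE of 0.702 and an adjusted p of 0.0531, and passed it in 10 of 23 alternative settings. With only the compared groups in the fit, 4 of 7 were called lower, among 826 probe sets called. Without deletion replicate 3 alone, 3 of 7 were called lower, among 944 probe sets called. Without the 3 cultures named above the differences were -2.33 for ARG1 to -0.97 for ARG7, and calls were gained, as given with the processing below. No culture overlapped between the groups for 7 of 7 genes, against 14.5% of all probe sets with the first group lower. Against Pdr1-Sin3, on arrays of the same kind, the values were -1.98 for ARG1 to -0.30 for ARG8. Again 0 of 7 were called in limma, where 2.53% of all probe sets were, and 2 of 7 had an unadjusted p under 0.05. With only these groups in the fit, 4 of 7 were called lower, among 427 probe sets called. Against Pdr1-Sin3, too, calls were gained without the 3 cultures named above. ARG1, ARG4, ARG7, CPA1 and YOR302W did not overlap between these groups, as did not 13.7% of all probe sets with the first group lower.

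By mean level, all 7 genes had the same order of groups: the deletion highest, then Pdr1-Cyc8, the empty vector, Pdr1-Sin3, and Pdr1-Cyc8 in the deletion lowest. Neighbours in this order overlapped, except Pdr1-Sin3 and Pdr1-Cyc8 in the deletion for the 5 genes just named. For CPA1 the means ran 11.89 ± 1.99 (SD, n = 3 in each group), 11.00 ± 1.16, 10.28 ± 0.69, 9.66 ± 0.35 and 8.55 ± 0.28. The SD of CPA1 thus widened with the mean.

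Spread within groups set these genes apart by rank from most of the array. Their residual SD over the 15 arrays was 0.79 (ARG7) to 1.37 (ARG3) on the log2 scale, against a median of 0.35 over all probe sets, and lay at the 98.4th to 99.9th percentile. In the deletion the range over 3 cultures was 2.09 for ARG4 to 4.35 for ARG3, where the median of all probe sets was 0.68, and replicate 3 was lowest in 7 of 7 genes. With Pdr1-Cyc8 the range was 1.81 to 3.19, against a median of 0.56. It was 0.38 to 0.60 with Pdr1-Cyc8 in the deletion, close to the median of 0.52 there. Since the genes were named after the data had been seen, these ranks are a description.

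In 3 groups the 7 genes went up and down together over the cultures. The same order of replicates held for 7 of 7 genes with Pdr1-Cyc8, 6 of 7 with the empty vector and 5 of 7 in the deletion, while the most common order held for 4 of 7 with Pdr1-Cyc8 in the deletion and 2 of 7 with Pdr1-Sin3. The mean of the 6 genes other than YOR302W, each relative to its own empty vector mean, was 2.60, 2.53 and -0.34 in the 3 deletion cultures and 2.37, 0.94 and -0.03 with Pdr1-Cyc8. It was -0.64, -0.15 and 0.79 with the empty vector, -0.57, -0.58 and -0.62 with Pdr1-Sin3, and -1.49, -1.69 and -1.40 with Pdr1-Cyc8 in the deletion. Ribosome assembly genes on the same arrays stood at -1.55, -1.71 and -0.16 in the deletion, at -1.32, -0.53 and -0.48 with Pdr1-Cyc8, and at 0.26, 0.071 and -0.33 with the empty vector. Within these 3 groups, the culture with the highest arginine mean had the lowest ribosome assembly mean, with the exception of the deletion, where replicates 1 and 2 lay close on both. With Pdr1-Cyc8 in the deletion the ribosome assembly means were -0.055, 0.007 and -0.095, and with Pdr1-Sin3 they were -0.63, -0.65 and -0.82, though the arginine means were below 0 in both. The part of growth state in the arginine values was not tested.

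**Figure D3:**
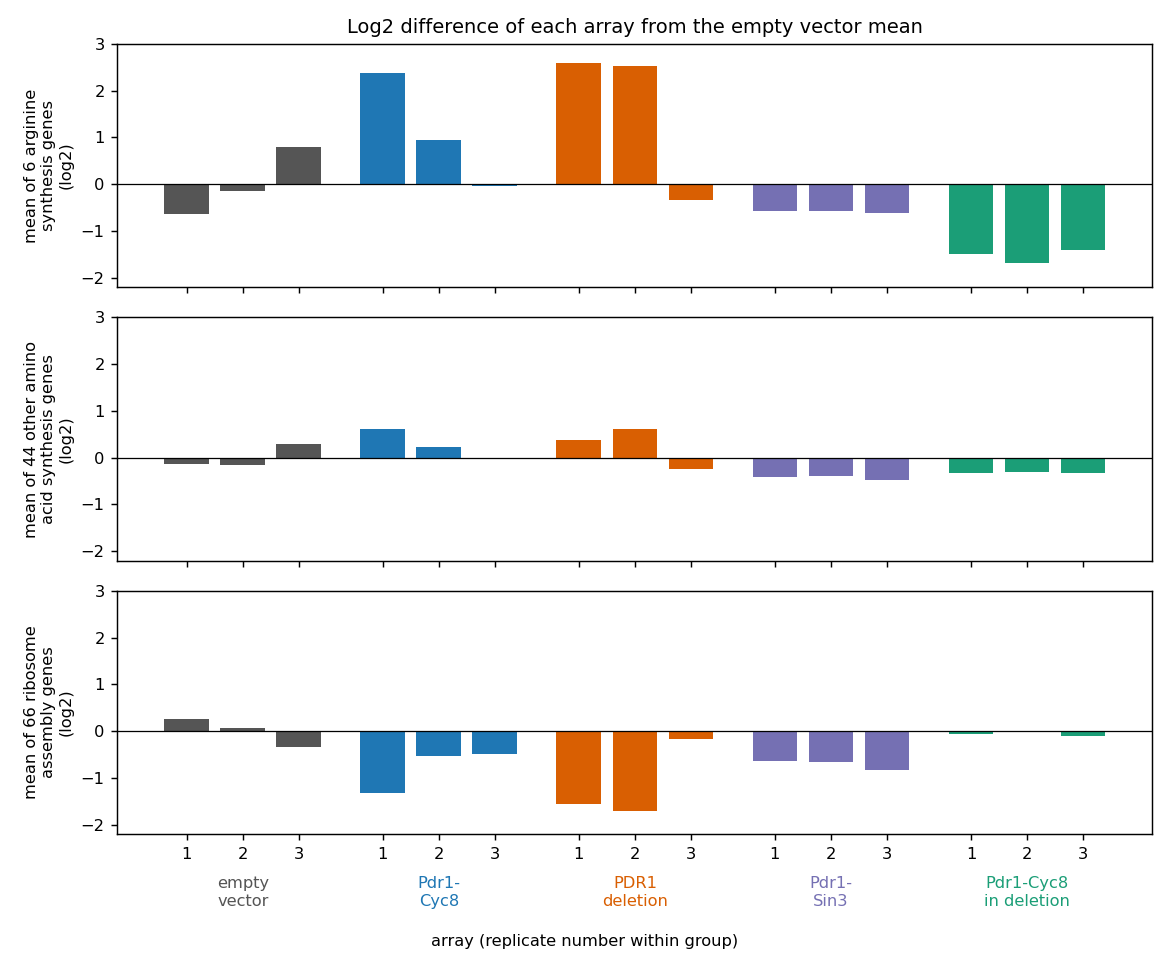
Mean log2 difference from the empty vector mean, for each of the 15 arrays (bars, by group and replicate), of 6 arginine synthesis genes, 44 other amino acid synthesis genes and 66 ribosome assembly genes. In the upper panel Pdr1-Cyc8 replicate 1 and deletion replicates 1 and 2 are highest, at 2.37, 2.60 and 2.53, and they are lowest in the bottom panel.

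Other genes of the route to arginine followed in the same comparison. Both other measured synthesis genes, ARG2 and ORT1, fell with Pdr1-Cyc8 in the deletion relative to the deletion alone. In this comparison 8.70% of all probe sets were called lower. ARG2, the acetylglutamate synthase of the first step, was at 10.05, 9.42 and 8.40 in the deletion and at 7.91, 7.26 and 6.77 with the fusion added, and fell by 1.98 (SE 0.389, limma adjusted p = 0.00354). ORT1, the carrier that exports ornithine from the mitochondrion, was at 9.31, 9.86 and 7.38, and at 6.78, 7.25 and 7.28. It fell by 1.75 (SE 0.570, adjusted p = 0.0441), a call that held in 7 of 23 alternatives, and its deletion replicate 3 lay close to the cultures with the fusion. Without the 3 cultures named above, ARG2 differed by -1.09 (adjusted p = 0.158) and ORT1 by -0.28 (adjusted p = 0.834). The interaction was also called for ARG2, at -2.44 (adjusted p = 0.015), and for ORT1, at -2.90 (adjusted p = 0.033), the latter held in 11 of 23 alternatives. Without the same cultures neither interaction was called, with ARG2 at -1.28 (adjusted p = 0.276) and ORT1 at -1.02 (adjusted p = 0.549).

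Of 5 regulators, 1 was lower between the deletion groups and 4 were not called, where 8.70% of all probe sets were called lower. ARG80, a DNA-binding subunit of the arginine repressor, was at 7.80, 7.89 and 7.34 in the deletion and at 6.12, 6.05 and 7.16 with Pdr1-Cyc8 in the deletion. It fell by 1.23 (SE 0.306, adjusted p = 0.0128), a call that held in 18 of 23 alternatives, and it fell by 1.41 against the empty vector (SE 0.306, adjusted p = 0.0104). The difference of ARG80 between the deletion groups was -0.90 (adjusted p = 0.23) without the 3 cultures named above. The call against the empty vector was lost, at adjusted p = 0.0506, only without Pdr1-Cyc8-in-deletion replicate 1 among 23 alternatives. Its partner ARG81 differed by -0.42 between the deletion groups (adjusted p = 0.211), the inositol polyphosphate kinase ARG82 by -0.25 (adjusted p = 0.581), and the MADS-box factor MCM1 by 0.14 (adjusted p = 0.718). The GCN4 transcript differed by 0.053 (adjusted p = 0.92), with levels of 12.45, 12.95 and 12.33 against 12.61, 12.66 and 12.62. Gcn4 is controlled mainly in translation, so its transcript does not measure its activity.

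Arginine breakdown genes went the other way in part. Of 6 measured, 2 were called higher between the deletion groups, where 19.0% of all probe sets were called in either direction. CAR1, the arginase, was at 9.70, 9.33 and 10.09 in the deletion and at 11.05, 10.74 and 10.93 with Pdr1-Cyc8 in the deletion, a rise of 1.20 (SE 0.238, adjusted p = 0.00373). Against the empty vector, at 9.71, 9.65 and 10.13, it was higher by 1.08 (SE 0.238, adjusted p = 0.0115). The first of these calls was lost without the 3 cultures named above (0.82, adjusted p = 0.117), and the second without empty vector replicate 2 (adjusted p = 0.0567). Its levels with Pdr1-Sin3, 10.76, 10.70 and 10.53, lay close to those of the fusion in the deletion, on the same kind of array. CAR2, the ornithine aminotransferase, rose by 1.83 between the deletion groups (SE 0.600, adjusted p = 0.045), yet the groups overlapped, since deletion replicate 3 was at 10.80 and replicates 1 and 2 at 8.85 and 8.37. That call held in 6 of 23 alternatives, and without the 3 cultures CAR2 differed by 0.37 (adjusted p = 0.726). PUT1, PUT2 and PRO3, of proline metabolism, and UME6, a repressor of CAR1 that recruits Sin3, were not called in this comparison, at 0.40, -0.55, 0.51 and 0.14. DUR1,2 was not analysed here.

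**Figure D4:**
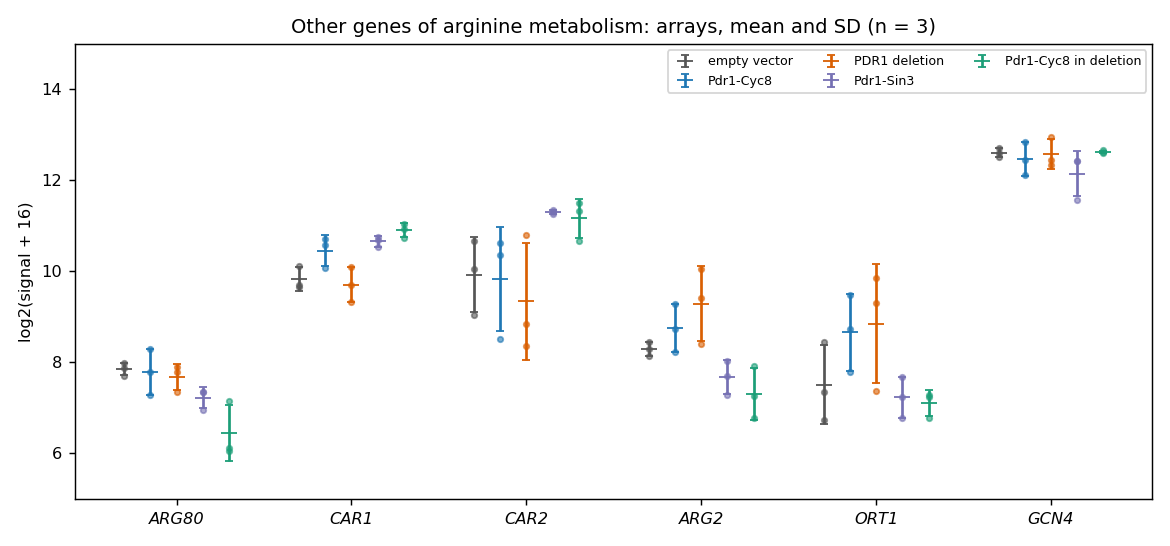
Levels, as log2(signal + 16) after quantile normalisation, of further arginine genes on each of the 15 arrays (points) with the group mean and SD (bars, n = 3), by group. CAR1 is higher with Pdr1-Cyc8 in the deletion (10.74 to 11.05) than in the deletion alone (9.33 to 10.09), and ARG2 is lower.

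Of 3 arginine uptake genes, CAN1, the arginine permease, was lower in the same comparison, at 8.23, 8.62 and 8.40 against 9.17, 9.79 and 8.83. CAN1 was the 1 of 3 called, where 8.70% of all probe sets were called lower. It fell by 0.85 (SE 0.271, adjusted p = 0.0406), a call that held in 8 of 23 alternatives. CAN1 differed by -0.41 (adjusted p = 0.471) without the 3 cultures named above. ALP1, a basic amino acid permease, and GAP1, the general amino acid permease, differed by -0.41 and -0.15 (adjusted p = 0.441 and 0.876). GAP1 was at 7.48, 7.91 and 9.18 with the empty vector and at 11.21, 10.16 and 9.39 with Pdr1-Cyc8, and was not called. In the interaction CAN1 was called at -1.26 (adjusted p = 0.046), which held in 4 of 23 alternatives and was -0.60 (adjusted p = 0.49) without those cultures.

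For comparison, 44 genes of other amino acid pathways had a smaller median difference between the deletion groups. There 8 of 44 were lower and 2 higher, where 8.70% of all probe sets were called lower and 19.0% in either direction. The median of the 44 was -0.39, while the arginine genes had a median of -3.34 and all probe sets 0.013. Single genes of the 44 ran from -3.33 to 1.34, so the lowest fell further than some arginine genes. HIS4, of histidine synthesis, fell by 2.07 (SE 0.329, adjusted p = 0.000995), LEU4, of leucine synthesis, fell by 1.85 (SE 0.346, adjusted p = 0.00256) and ILV2, of branched-chain amino acid synthesis, fell by 1.21 (SE 0.224, adjusted p = 0.00248). HIS4 and LEU4 passed in all 23 alternatives, also without the 3 cultures named above, at -1.39 and -1.74. Without those cultures ILV2 was not called, at -1.24 (adjusted p = 0.0638), and 2 of 44 genes of the list were called lower. In the interaction single genes of the 44 ran from -4.36 to 1.88. There 7 of 44 were called lower and 0 higher, where 5.30% of all probe sets were called lower. HIS4 was at -2.74 (limma adjusted p = 0.00416), LEU4 at -2.60 (adjusted p = 0.00687) and ILV2 at -1.36 (adjusted p = 0.0165). These 3 calls were lost without the 3 cultures, with HIS4 at -1.76 (adjusted p = 0.0653), LEU4 at -2.19 (adjusted p = 0.0983) and ILV2 at -1.36 (adjusted p = 0.168). HIS4, LEU4, ILV2 and HIS7 were the 4 of 44 called lower with Pdr1-Cyc8 in the deletion against the empty vector, at -1.36, -1.30, -1.06 and, for HIS7, -1.35, where 8.47% of all probe sets were called. With Pdr1-Sin3, ILV1, threonine deaminase, was the 1 gene of this list called against the empty vector, where 3.71% of all probe sets were called, at -0.98 (limma adjusted p = 0.039), a call that held in 15 of 23 alternatives. ILV1 was also the 1 gene of the list called for Pdr1-Cyc8 in the deletion against Pdr1-Sin3, where 2.53% of all probe sets were called, higher by 1.01 (adjusted p = 0.0448), which held in 8 of 23. The difference between the lists in size was not tested.

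The genes most like the arginine genes were found by the root mean square difference, over the 15 arrays, from the mean profile of 6 of them (all measured members but YOR302W), each centred on its own mean. Among 5649 other genes the median was 1.44 on the log2 scale. STR2, a cystathionine gamma-synthase of sulfur amino acid metabolism, came closest at 0.315. ATG41, an autophagy gene, followed at 0.34, then ECM13 at 0.422, PDR12, a plasma membrane pump for weak acids, at 0.463, and PEX21, a peroxisomal import factor, at 0.477. Measured the same way, CPA1 was at 0.259, YOR302W at 0.299 and ARG3 at 0.59. The profile holds CPA1 and ARG3 themselves, so their values are not on equal terms with those of other genes. The other genes were picked for likeness over the same 15 arrays, so their differences between groups and their spreads are not independent evidence. STR2 fell by 2.68 between the deletion groups (limma adjusted p = 0.00455), and its SD in the deletion was 1.41, against 0.24 with the fusion added. PDR12 fell by 2.93 (adjusted p = 0.00198) and was also lower than with the empty vector, at -1.80 (adjusted p = 0.0449), a call that held in 10 of 23 alternatives. Without the 3 cultures named above STR2 differed by -1.06 and PDR12 by -1.53, and neither was called (adjusted p = 0.151 and 0.0681).

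**Figure D5:**
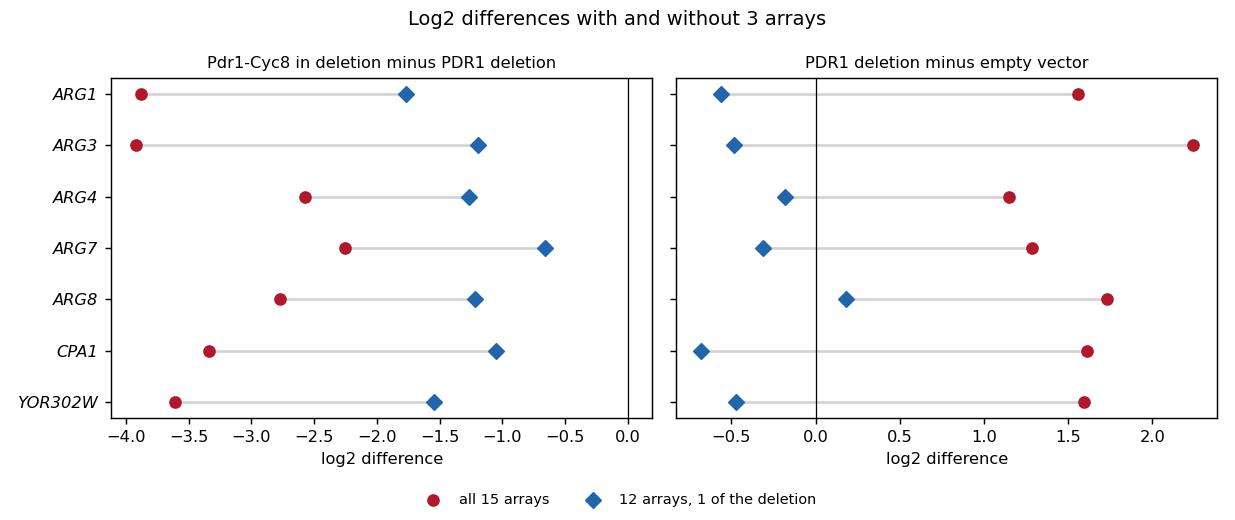
Log2 differences of the 7 genes between Pdr1-Cyc8 in the deletion and the deletion alone (left) and between the deletion and the empty vector (right), with all 15 arrays (circles) and without the 3 cultures highest in arginine genes (diamonds). The diamonds lie between -1.77 and -0.66 on the left and between -0.68 and 0.18 on the right.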

How the data were processed

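The deposited table holds linear intensities, 1 value for each of 9335 probe sets and 15 arrays. Their software and scaling were not given in the sources used here, but all arrays had a similar trimmed mean of the deposited intensity values, 499.7 to 499.8 after trimming 2% from each end. Array medians were 115.7 to 141.0. Total signal was 6839487 to 7739820. Of these probe sets 60 controls were left out. The 9275 others were quantile normalised and taken as log2(value + 16). Of them 6504 named 1 gene in the platform annotation, 328 several and 2443 none.

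Groups, from the sample titles, were compared in 1 limma 3.58.1 fit (R 4.3.3) to all 15 arrays, with 10 residual and 5.35 prior degrees of freedom. Benjamini-Hochberg adjustment ran over 9275 probe sets in each of 7 comparisons. Precision is limited by the 3 arrays in each group. The fit uses 1 spread per gene for all groups, so SEs and adjusted p of the arginine genes do not follow their unequal spreads. The labels call replicates biological and say no more. The procedure was also run on simulated data, with independent noise of equal spread in every group. The arginine genes had unequal spreads between groups, so that run does not describe their calls.

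The genes and lists were chosen with earlier results of these data known. Named were all members, every measured gene of the lists of arginine synthesis, regulation, breakdown and uptake, up to 3 called genes of each other list and comparison by adjusted p, and the 5 genes nearest to the members' mean profile. The profile was planned with 7 genes and holds 6. Figures were drawn with matplotlib 3.10.9.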

Additional observations from a re-analysis of the deposited data

Results flagged for a closer look

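The effect of Pdr1-Cyc8 differed between cells without and with endogenous PDR1 for each of the 7 measured genes, by the limma interaction over all probe sets. The differences on the log2 scale, effect in the deletion minus effect in cells with PDR1, were -5.35 for ARG1, -5.58 for ARG3, -3.24 for ARG4, -3.20 for ARG7, -3.87 for ARG8, -4.07 for CPA1 and -4.18 for YOR302W. The effect in the deletion crosses the kinds of array told apart by the BioB and BioC controls, while that in cells with PDR1 does not, so the interaction cannot be told apart from a difference between the kinds of array.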

How the results depend on the processing

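Alternatives used deposited values without normalisation, median centring, no dimmest 25% of probe sets, a pseudocount of 1 or 64, only the compared groups in the fit, a block for the replicate number, each array left out in turn, and 3 arrays left out together. The last leaves 1 deletion array, which is taken to vary as much as arrays elsewhere. For the arginine genes over all comparisons, 1051 values kept their direction and side of the threshold, 33 gained a call, 32 lost one and 11 changed sign. Without Pdr1-Cyc8 replicate 1 and deletion replicates 1 and 2, 0 genes were called between the deletion groups and 0 in the interaction, and 5 were called for Pdr1-Cyc8 in the deletion against the empty vector and 2 against Pdr1-Sin3. Deletion minus empty vector then came to -0.56 for ARG1, -0.48 for ARG3, -0.18 for ARG4, -0.31 for ARG7, -0.68 for CPA1 and -0.47 for YOR302W, and Pdr1-Cyc8 minus empty vector to -0.11 for YOR302W. Probe sets called were then 36 for Pdr1-Cyc8, 8 for the deletion and 577 for Pdr1-Sin3, each against the empty vector, 326 between the deletion groups, 1024 for Pdr1-Cyc8 in the deletion against the empty vector, 450 for Pdr1-Cyc8 in the deletion against Pdr1-Sin3 and 53 in the interaction. Those cultures are also highest for the arginine genes, so leaving them out lowers the deletion mean by construction. Pdr1-Cyc8 in the deletion against the empty vector had 1 gene called with values as deposited, 1 with median centring, 1 without the dimmest probe sets and 4 with only the groups compared, and against Pdr1-Sin3 it had 4 with only the groups compared. With only the groups compared, 10 probe sets were called for Pdr1-Cyc8, 427 for Pdr1-Cyc8 in the deletion against Pdr1-Sin3 and 920 between the deletion groups. A pseudocount of 1 gave 36, 142 and, in the interaction, 710. The cause of these shifts in counts was not tested.

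Leaving out each array gave 0 to 7 arginine genes called for the deletion against the empty vector (7 without deletion replicate 3), 0 to 0 for Pdr1-Cyc8 and 0 to 0 for Pdr1-Sin3, 6 to 7 between the deletion groups, 0 to 3 for Pdr1-Cyc8 in the deletion against the empty vector, 0 to 1 against Pdr1-Sin3 and 2 to 7 in the interaction. Probe sets called were, in the same order, 2 to 829, 18 to 97, 131 to 502, 1002 to 2223, 371 to 944, 67 to 395 and 437 to 1804. Without empty vector replicate 3, Pdr1-Sin3 minus empty vector changed sign for 3 genes. Its lowest and highest values over the arrays left out were -0.67 and 0.087 for ARG1, -0.83 and 0.17 for ARG4, and -0.49 and 0.014 for ARG7. Pdr1-Cyc8 minus empty vector ranged from -0.11, without Pdr1-Cyc8 replicate 1, to 1.14 for YOR302W. Deletion minus empty vector ranged from 1.03 to 2.63 for ARG1, 1.43 to 3.60 for ARG3, 0.72 to 1.82 for ARG4, 0.85 to 2.08 for ARG7, 0.95 to 2.76 for CPA1 and 0.98 to 2.63 for YOR302W, highest without deletion replicate 3.

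With the replicate number as a block, 7 arginine genes were called between the deletion groups and 7 in the interaction, 0 in the other comparisons, and 1586 probe sets between the deletion groups. Pooled over all groups, the numbers showed no pairing: 3 of 30 correlations between same-numbered arrays were over 0.1, and the best correlate had the same number in 13 of 60 cases. Between Pdr1-Cyc8 and the deletion alone the correlations were 0.233, -0.027 and 0.334 for replicates 1, 2 and 3. Whether these groups were paired was not tested. In that fit the calls of ORT1, CAR2 and CAN1 between the deletion groups, of CAN1 in the interaction, of PDR12 against the empty vector and of ILV1 against Pdr1-Sin3 were lost, and no other call of a named gene changed.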

Other observations

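Ornithine is also the source of polyamines, and 2 of 4 polyamine genes were higher with Pdr1-Cyc8 in the deletion than in the deletion alone, where 19.0% of all probe sets were called in either direction. SPE2, the S-adenosylmethionine decarboxylase, was at 10.01, 9.79 and 9.62 against 7.99, 8.31 and 9.65, higher by 1.16 (SE 0.360, limma adjusted p = 0.0358), and these groups overlapped. Its interaction was 1.75 (adjusted p = 0.0388), a call that held in 8 of 23 alternatives. SPE4, spermine synthase, was higher by 0.98 (SE 0.304, adjusted p = 0.0348). The calls of SPE2 and SPE4 between the deletion groups held in 15 and 17 of 23 alternatives. Without Pdr1-Cyc8 replicate 1 and deletion replicates 1 and 2, SPE2 differed by 0.16 (adjusted p = 0.815), SPE4 by 0.44 (adjusted p = 0.548) and the SPE2 interaction was 0.45 (adjusted p = 0.628). SPE1, the ornithine decarboxylase, differed by -0.73 (adjusted p = 0.0722). Of 12 genes linked to the supply or use of glutamate and glutamine, ACO1, the mitochondrial aconitase, was the 1 called. It was lower by 1.43 (SE 0.416, limma adjusted p = 0.027), against the same background. That call held in 18 of 23 alternatives, and without the 3 cultures ACO1 differed by -1.31 (adjusted p = 0.0554). Against the empty vector 0 of the 4 polyamine genes and 0 of these 12 were called in limma, and SPE2 differed by -0.031 (adjusted p = 0.975).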
